A study of Mus musculus with 18 samples.

Results

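Loss of THAP1 was examined in mouse oligodendrocyte progenitor cells (OPCs), the dividing glial cells that mature into the oligodendrocytes of myelin, at day 2 of differentiation (DIV2). The comparison used the 6 DIV2 libraries of an 18-library RNA sequencing series, chosen by their stage label: 3 Control clones, named D7, D3 and E8, against 3 clones labelled Thap1 null, named 3F, D6 and 7F. All 6 were clonal OPC lines derived from primary neural stem cells, kept in oligodendrocyte differentiation medium with the thyroid hormone T3 at 40 µg/ml, so the controls carried every condition except the genotype. Each clone gave 1 library per stage, and the same clones were also sampled at DIV4 and as OPCs. The method that produced the null clones is not given in the sources used here. Except in the permutation test, a p-value below rests on the spread between the 3 clonal lines of a genotype, pooled over DIV2 and DIV4. The fit (limma) also draws each gene's spread toward that of other genes at a similar level. Where a fit leaves out a clone or library, or uses other libraries, its p-values rest on the libraries it keeps. Unless the clone is entered as a block, the DIV2 and DIV4 libraries of a clone were treated as independent. Differences between genotypes and differences between the lines that happened to represent them cannot be told apart. In libraries from whole cultures, fewer cells of a type and less RNA per cell cannot be told apart either.

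THAP1 is a transcription factor that binds DNA through a zinc-coordinating THAP domain, and mutations in the human gene cause a form of dystonia, a movement disorder. OPCs placed in medium without mitogens and with T3 leave the cell cycle, pass through a premyelinating stage and then switch on the genes of myelin and of cholesterol and galactolipid synthesis. Lysosomal enzymes, among them those that break down glycosaminoglycans, take part in clearing the matrix that surrounds the maturing cell. The comparison addresses which transcripts differ when cells without THAP1 have been in differentiation medium for 2 days.

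The published core of the THAP1 binding site is TNNGGGCA, where N is any base, and it was searched for on either strand of the RefSeq promoters (GRCm38.p6), which run from 250 bases before to 50 bases after each start. Of the 10 unique-sequence genes with the largest falls, 7 had a promoter in the table and 3 of those held the core: Ech1, Bfsp2 and Cuedc2. Their promoters are shown because they belong to genes whose transcripts were nearly lost or strongly reduced in every null clone, with the match in capitals. The Ech1 promoter lies at chr7:28825088-28825387 on the plus strand and holds the core on its opposite strand, first base at position -131 from the start. The Bfsp2 promoter lies at chr9:103449127-103449426 on the minus strand, with the core on the opposite strand from position -57. The Cuedc2 promoter lies at chr19:46338611-46338910 on the minus strand, with the core on its own strand from position -62.
Ech1: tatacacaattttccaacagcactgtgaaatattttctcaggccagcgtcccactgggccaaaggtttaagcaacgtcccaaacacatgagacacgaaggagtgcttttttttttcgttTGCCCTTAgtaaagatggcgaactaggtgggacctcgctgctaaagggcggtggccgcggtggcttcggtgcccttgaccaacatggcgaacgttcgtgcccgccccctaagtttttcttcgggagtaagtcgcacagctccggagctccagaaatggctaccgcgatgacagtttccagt
Bfsp2: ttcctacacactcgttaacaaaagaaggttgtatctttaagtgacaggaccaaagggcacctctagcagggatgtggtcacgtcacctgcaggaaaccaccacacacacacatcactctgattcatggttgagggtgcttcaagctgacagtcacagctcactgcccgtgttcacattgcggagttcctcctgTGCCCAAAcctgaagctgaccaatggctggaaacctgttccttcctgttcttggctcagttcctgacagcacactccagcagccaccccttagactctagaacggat
Cuedc2: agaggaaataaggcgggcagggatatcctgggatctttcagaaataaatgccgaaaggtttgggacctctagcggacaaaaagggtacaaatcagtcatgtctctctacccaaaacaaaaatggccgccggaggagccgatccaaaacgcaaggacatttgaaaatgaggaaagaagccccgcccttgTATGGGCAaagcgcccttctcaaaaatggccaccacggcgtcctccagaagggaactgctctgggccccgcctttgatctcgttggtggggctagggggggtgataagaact
The core was also common among other promoters. It was present in 13.9% of all 32851 promoters of that length in the table. By gene, it was present in a promoter of 15.6% of the 7906 tested genes with one, of 24.5% of 151 unique-sequence genes called lower, of 19.7% of 203 called higher and of 15.6% of 6486 not called. The genes called lower had 1.44 promoters each in the table, against 1.29 for those not called. Among the 10 largest rises, 3 of the 7 with a promoter held the core as well. The Gusb promoter at chr5:130003000-130003299, minus strand, held no match. A match is a description of letters and not of binding.

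The deposited values were TPM (a length-normalised share of the RNA in a library), summed here over the protein-coding transcripts of each gene and rescaled so that the median gene did not shift between libraries. TPM keeps no sequencing depth, so counting error is unknown and precision rests on the clones. Protein-coding transcripts held 29.4% to 31.8% of the TPM in the control DIV2 libraries and 26.1% to 32.1% in the null ones. Of the 12 libraries at DIV2 and DIV4 that share 1 estimate of the spread, the Control DIV4 library of clone D7 stood apart. On the first principal component it lay at -44.9, next to the DIV2 library of its own clone at -40.8, while the other control DIV4 libraries lay at 7.21 and 3.97. Without it 6.22% of all genes tested were called higher and 5.81% lower, the background for the counts given without it below, which cover the lists that the text describes. Libraries of the same clone at DIV2 and DIV4 deviated together from their group means (mean correlation across genes 0.435 over 6 clones).

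Markers of the oligodendrocyte lineage were present in the cultures, and so were some markers of other cell types. Mbp, a main myelin protein, was at 521 to 2265 TPM, and Pdgfra, the OPC growth factor receptor, was at 5.01 to 31.7 TPM. Among markers of other cells, microglial C1qa and C1qb, endothelial Cldn5 and neuronal Stmn2 were listed at 0 in every DIV2 library. Other members of such lists were not, as their sums show. The summed level of 12 mesenchymal and vascular markers was 1.90 to 3.01 TPM in controls and 1.93 to 3.14 in nulls. That of 11 microglial markers was 10.6 to 14.1 and 13.0 to 18.9 TPM. For 18 neuronal markers the sums were 159 to 186 TPM in controls and 102 to 141 in nulls, most of it Tubb3 and Map2. Astrocyte markers (16 genes) summed to 188 TPM in D7, 681 in D3 and 505 in E8, against 486 to 501 in the nulls, and Vim in the same order of control clones was at 14.1, 183 and 124 TPM. Neural stem cell markers summed to 185, 474 and 543 TPM in the controls and 212 to 270 TPM in the nulls. None of the tested members of these 5 lists passed the test, and without the D7 DIV4 library 1 did, Map2, a neuronal microtubule protein that was lower in the nulls (-0.61, limma adjusted p = 0.0368). The part of such cells in the results below was not tested.

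Thap1 itself was lower in every null library. Its coding transcripts were at 2.84, 3.65 and 4.06 TPM in D7, D3 and E8 and at 0.502, 0.939 and 1.0 TPM in 3F, D6 and 7F, an order of clones that is kept for all values below. The groups did not overlap (two-sided exact permutation test, p = 0.1, the smallest that 3 against 3 allow). On the log2(TPM + 1) scale, used for every change given here and understating changes of low genes, Thap1 fell by 1.32 (SE 0.22, limma, adjusted p = 0.00768), and without null clone 3F the adjusted p was 0.0735. A retained-intron transcript of Thap1 moved the other way, at 4.69, 1.93 and 3.13 TPM in controls and 9.21, 12.5 and 11.4 TPM in nulls, so that a sum over all Thap1 rows was higher in the nulls by 4.98 TPM.

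Of 10520 genes tested, 558 (5.3%) were called, meaning a limma adjusted p under 0.05. They comprised 324 higher (3.08%) and 234 lower (2.22%) in the nulls, while 2299 had an unadjusted p under 0.05. The median change over all genes was -0.01. A gene was taken as unique-sequence where under 10% of the 31-base words of its coding transcripts occur in another gene, so that reads should not be split between copies. By that rule 468 of 8913 unique-sequence genes were called (5.25%), 276 higher (3.1%) and 192 lower (2.15%). Of these, 133 rose and 81 fell by at least 1 on the log2 scale, and 32 rose and 21 fell by at least 2. The 3 control and 3 null values did not overlap for 32.9% of all genes tested (15.5% higher, 17.3% lower), which is the background for every statement on overlap below. The count of calls depended on single clones. It was 109 without 3F, 92 without 7F, 246 without D3, 216 without E8 and 1341 without D7, and 1273 without the D7 DIV4 library alone, in which all 558 were called again. Of the 57 called genes named here, 17 were called in each of the 6 fits that leave out 1 clone.

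**Figure D1:**
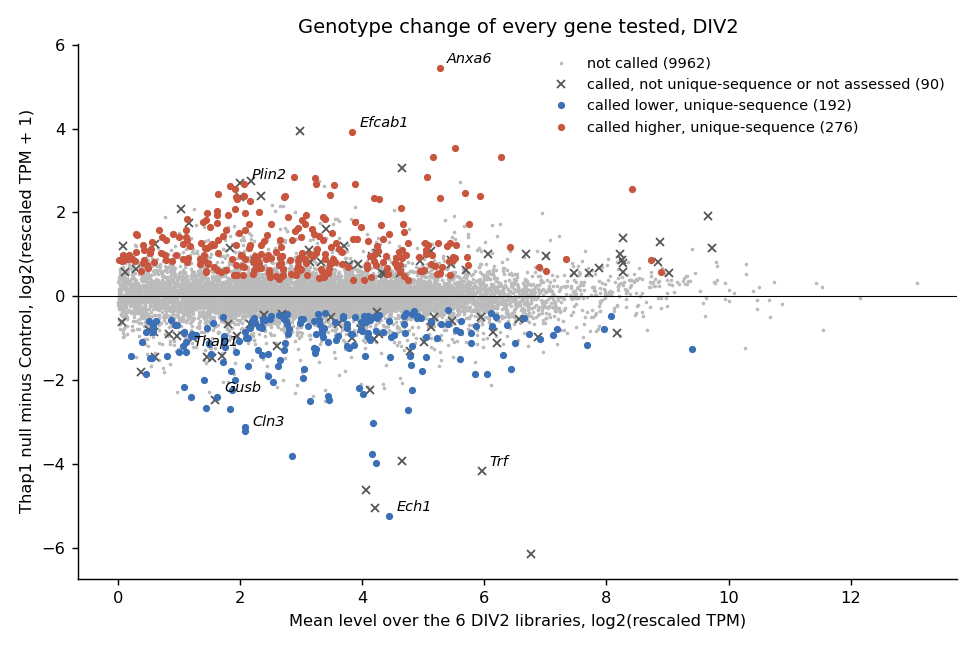
Change between genotypes at DIV2 against mean level for the 10520 genes tested, both on log2 scales (rescaled TPM). Each point is a gene; blue and red points are the 192 lower and 276 higher unique-sequence genes, crosses are called genes that share sequence or could not be assessed, and grey points were not called. Anxa6 at 5.44 and Ech1 at -5.25 are the most changed unique-sequence genes.

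In 6 of the 10 largest falls, every null clone was left under 1 TPM. Ech1, an enoyl-CoA hydratase-family enzyme of fatty acid breakdown, was at 50.6, 34.5 and 44.4 TPM in controls and at 0.147, 0.215 and 0.0901 TPM in nulls (log2 change -5.25, SE 0.19, limma adjusted p = 7.35e-08). Cln3, the lysosomal membrane protein lost in juvenile Batten disease, was at 7.61, 9.03 and 8.77 TPM in controls, listed at 0 in 3F and D6 and at 0.0407 TPM in 7F (-3.22, SE 0.20, limma adjusted p = 7.21e-06). No null library came near the controls for either gene. Zfp882, a zinc-finger gene, was at 8.06, 9.14 and 7.84 TPM against 0.0283, 0.0548 and 0.136 TPM (-3.12, SE 0.12, limma adjusted p = 7.54e-08). Fam73a, also called Miga1, codes for a mitochondrial outer membrane protein that promotes fusion, and was at 18, 12.7 and 12.2 TPM against 0.0492, 0.0933 and 0.112 TPM (-3.80). The uncharacterised 1110034G24Rik was at 4.92 to 5.67 TPM in controls and listed at 0 in all 3 nulls (-2.68). Bfsp2, known as a beaded-filament protein of the lens, kept about the same residue in each null clone, at 33.7, 33.1 and 32.3 TPM against 3.27, 3.56 and 2.86 TPM (-3.01). Cuedc2, which carries a ubiquitin-binding CUE domain, was at 52.2, 54.6 and 34.6 TPM against 8.20, 7.05 and 4.15 TPM (-2.70). The calls of these 7 genes held in each fit without 1 clone, with a highest adjusted p of 0.00923 (limma, Cuedc2).

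The remaining 3 of the 10 largest falls were less even across the null clones. Scg5, the chaperone 7B2 of a prohormone convertase, was at 28.4, 35.4 and 40.6 TPM in controls and was listed at 0 in 3F, at 0.387 TPM in D6 and at 7.16 TPM in 7F (-3.98). Txndc15, a thioredoxin-domain membrane protein, was at 34.5, 31.8 and 32.7 TPM against 0.430, 7.37 and 0.331 TPM (-3.75), so D6 kept the most of it. Lrrc16a, which codes for CARMIL1, a regulator of actin capping protein, was at 7.56, 5.20 and 7.95 TPM against 0.108, 0.230 and 0.290 TPM (-2.69). Null and control values did not overlap for any of them, which the naming rule required. The limma adjusted p was above 0.05 for Scg5 without D3, E8, 3F or D6 (highest 0.107). It was also above 0.05 for Txndc15 without D3, E8, 3F or 7F (highest 0.108) and for Lrrc16a without 3F or 7F (0.0621).

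The largest rise was that of Anxa6, a calcium-dependent membrane-binding annexin, at 0.0791, 1.82 and 0.827 TPM in controls and 73.3, 67.3 and 88.5 TPM in nulls (log2 change 5.44, SE 0.33, limma adjusted p = 7.21e-06). Efcab1, an EF-hand protein, went from 0.361, 1.33 and 0.953 TPM to 37.5, 18.5 and 26.9 TPM (3.91, SE 0.37, limma adjusted p = 0.000228). Rgcc, a complement-responsive regulator of the cell cycle, was at 5.25, 11.4 and 5.62 TPM against 39.0, 62.5 and 75.8 TPM (2.86). In all 3, the lowest null value was several times the highest control value. Kcnip2, an accessory subunit of Kv4 potassium channels, was at 1.47, 1.08 and 1.83 TPM against 24.2, 9.17 and 18.5 TPM (2.81). Plin2, a coat protein of lipid droplets, was at 0.247, 0.304 and 0.515 TPM against 11.7, 5.46 and 6.86 TPM (2.68). These 5 calls held without any single clone, with a highest limma adjusted p of 0.0377 (Rgcc).

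In the other 5 of the 10 largest rises, clone D6 was the lowest of the null clones, as it was for Anxa6, Efcab1, Kcnip2 and Plin2. Mfge8, a secreted bridge between phosphatidylserine and integrins, was at 2.78, 7.07 and 6.71 TPM against 141, 27.8 and 89.9 TPM (3.54). Sparc, a secreted matrix glycoprotein, was at 1.35, 9.07 and 9.74 TPM against 77.7, 43.6 and 72.3 TPM (3.33). Syt4, a synaptotagmin of vesicle traffic, was at 14.3, 15.7 and 3.78 TPM against 220, 29.1 and 179 TPM (3.31). Fam114a1 was at 0.464, 1.04 and 1.04 TPM against 20.2, 5.15 and 16.2 TPM (2.84), and Mmp11, the secreted protease stromelysin-3, was at 0.767, 0.566 and 3.22 TPM against 31.9, 4.64 and 15.8 TPM (2.68). Groups did not overlap, which the naming rule required, and these calls rested on single clones. The highest limma adjusted p was 0.125 for Mfge8 (also lost without D3 or 3F), 0.184 for Sparc (lost without any clone except D7), 0.189 for Syt4 (lost without D3, E8 or 3F too), 0.0744 for Fam114a1 and 0.192 for Mmp11 (lost without D7, D3 or 3F too), in each case without 7F.

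**Figure D2:**
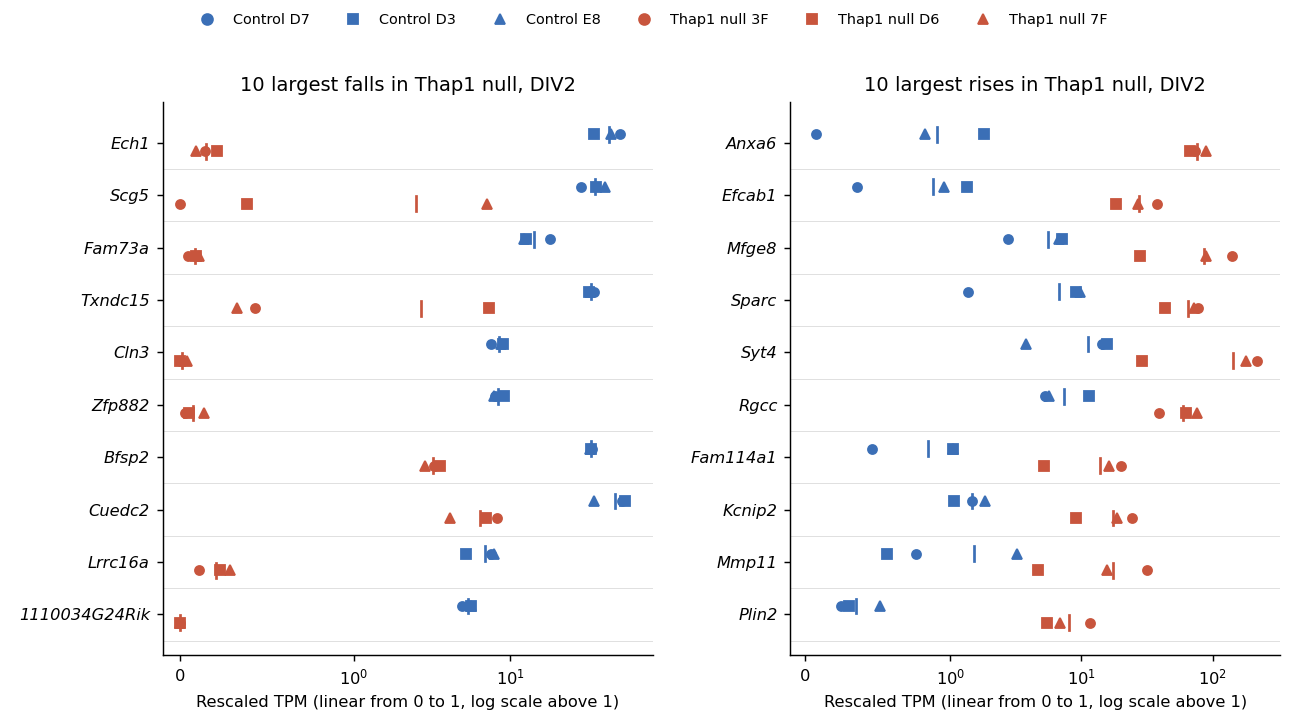
Level of the 10 largest falls (left) and 10 largest rises (right) in each DIV2 library, in rescaled TPM on an axis that is linear up to 1 and logarithmic above. Blue symbols are control clones, red symbols null clones, vertical ticks their means, and no gene shows overlap, since the rule asked for none; Scg5 and Txndc15 each have 1 null clone far above the other nulls.

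Few structural myelin genes passed the test at DIV2. Of 13 tested structural myelin proteins, 1 rose and none fell by the test, with a median change of -0.12 against -0.01 for all genes (3.08% of all genes were called higher and 2.22% lower). The 1 rise was that of Omg, a glycoprotein of the oligodendrocyte and axon surface, at 15.5, 19.3 and 20.5 TPM against 49.2, 35.8 and 54.8 TPM (log2 change 1.28, SE 0.20, limma adjusted p = 0.00641, but 0.0625 without 3F and 0.0744 without 7F). Mbp, the major protein of compact myelin, was at 2265, 1662 and 1190 TPM in controls and 581, 1159 and 521 TPM in nulls (-1.22, SE 0.80, limma adjusted p = 0.399). Clone D6 lay just under the lowest control, and Mbp was not called without the D7 DIV4 library either (limma adjusted p = 0.205). Mag, an adhesion protein of the innermost myelin layer, was at 284, 256.4 and 333 TPM against 188, 180 and 162 TPM (-0.71, limma adjusted p = 0.454), and Mobp, a protein of compact myelin, was at 3.01, 3.08 and 2.06 TPM against 0.0839, 0.313 and 0.106 TPM (-1.66, limma adjusted p = 0.192). For these 2 genes the adjusted p was 0.0363 and 0.00813 without the D7 DIV4 library, a fit in which 2 of the 13 myelin genes were lower and 2 (Omg and Pllp) higher. Mog, Cnp and Cldn11 overlapped between the genotypes.

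Among 13 tested enzymes and cytoskeletal genes of mature oligodendrocytes, 1 fell and 1 rose (median 0.42). Trf, the iron carrier transferrin and an abundant product of oligodendrocytes, was at 97.6, 109 and 152 TPM against 5.80, 6.19 and 4.80 TPM (-4.17, SE 0.33, limma adjusted p = 6.43e-05) and was called without any single clone. Its values are uncertain, since 70.5% of its 31-base words also occur in the annotated gene Gm20425. Anln, an actin-binding scaffold protein, rose from 3.25, 3.07 and 2.37 TPM to 9.89, 3.98 and 6.29 TPM (0.92, limma adjusted p = 0.0445), a call lost without D3, E8, 3F or 7F (highest 0.216) and with the clone as a block, a fit that lets the libraries of 1 clone vary together (0.0642). Among the members not called, Sept4, a septin, was at 19.3, 11.2 and 23.9 TPM against 108, 48.5 and 59.1 TPM. Without the D7 DIV4 library, 2 of the 13 were lower and 3 higher (Anln, Gjb1 and Sept4).

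The premyelinating list, genes of the stage between OPC and mature cell, held 2 of the falls. Of 18 tested genes, 2 fell and none rose, the median was -0.64, and 15 of 18 changes were negative. Tmem163, a zinc transporter, was at 73.1, 91.2 and 106 TPM against 21.5, 29.5 and 21.8 TPM (-1.85, SE 0.34, limma adjusted p = 0.0141). Itpr2, an intracellular calcium-release channel that marks newly differentiating oligodendrocytes, was at 44.5, 48.1 and 33.9 TPM against 9.05, 21.6 and 10.3 TPM (-1.64, SE 0.31, limma adjusted p = 0.0151). Null clones 3F and 7F were the lowest for both genes, and leaving out D3, 3F or 7F ended both calls (highest adjusted p 0.123 and 0.131, limma). Values of 9 members did not overlap and were lower in nulls, among them Fyn, a kinase needed for myelination, at 236, 259 and 270 TPM against 96.8, 206 and 111 TPM (-0.96, limma adjusted p = 0.0506). Without the D7 DIV4 library, 7 of 18 were called lower: Fyn, Itpr2, Kndc1, Rnf122, Tcf7l2, Tmem163 and Tmem2. In contrast Bmp4, a ligand that holds back oligodendrocyte maturation, was at 0.260, 7.42 and 0.447 TPM in controls and at 9.77, 8.58 and 9.07 TPM in nulls, with control D3 close to the nulls (2.03, limma adjusted p = 0.0816).

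None of 16 tested oligodendrocyte transcription factors passed the test (median -0.40). Olig1, a helix-loop-helix factor of the lineage, was at 136, 328 and 149 TPM against 70.6, 122 and 72.3 TPM (-1.13, SE 0.34, limma adjusted p = 0.0863, and 0.0495 without the D7 DIV4 library). Myrf, which switches on myelin genes, was at 12.5, 10.3 and 13.4 TPM against 8.03, 8.05 and 7.09 TPM (-0.57, limma adjusted p = 0.34). Sox10, which marks the whole lineage, overlapped between genotypes, at 183, 157 and 86.9 TPM against 107, 103 and 100 TPM. Of the 16 factors, 8 were lower in every null than in every control and 1, Zfp536, was higher in every null. No gene was called among 16 tested OPC markers or 18 inhibitors of differentiation. In the OPC list, Nnat (129, 234 and 178 TPM against 74.1, 65.3 and 67.8 TPM) and Neu4 (2.60, 12.8 and 3.94 TPM against 22.7, 21.4 and 20.7 TPM) had limma adjusted p-values of 0.112 and 0.0634. Without the D7 DIV4 library, Nnat and Olig1 were called lower and Neu4 higher among the 16 OPC markers, Gpr37, a receptor that restrains maturation, was called lower among the 18 inhibitors, and Olig1 and Tcf7l2 were called lower among the 16 transcription factors. Of 9 tested thyroid hormone receptors, transporters and targets, 1 rose: Bhlhe22, a helix-loop-helix factor, from 4.77, 4.03 and 3.69 TPM to 7.27, 5.72 and 7.92 TPM (0.62, limma adjusted p = 0.0409, lost without D3, E8, 3F or 7F, highest 0.208, and 0.0502 with the clone as a block). Thra, the main T3 receptor, overlapped, at 190.4, 114 and 154 TPM against 135, 138 and 123.1 TPM, and Klf9, a T3-responsive factor, overlapped too.

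**Figure D3:**
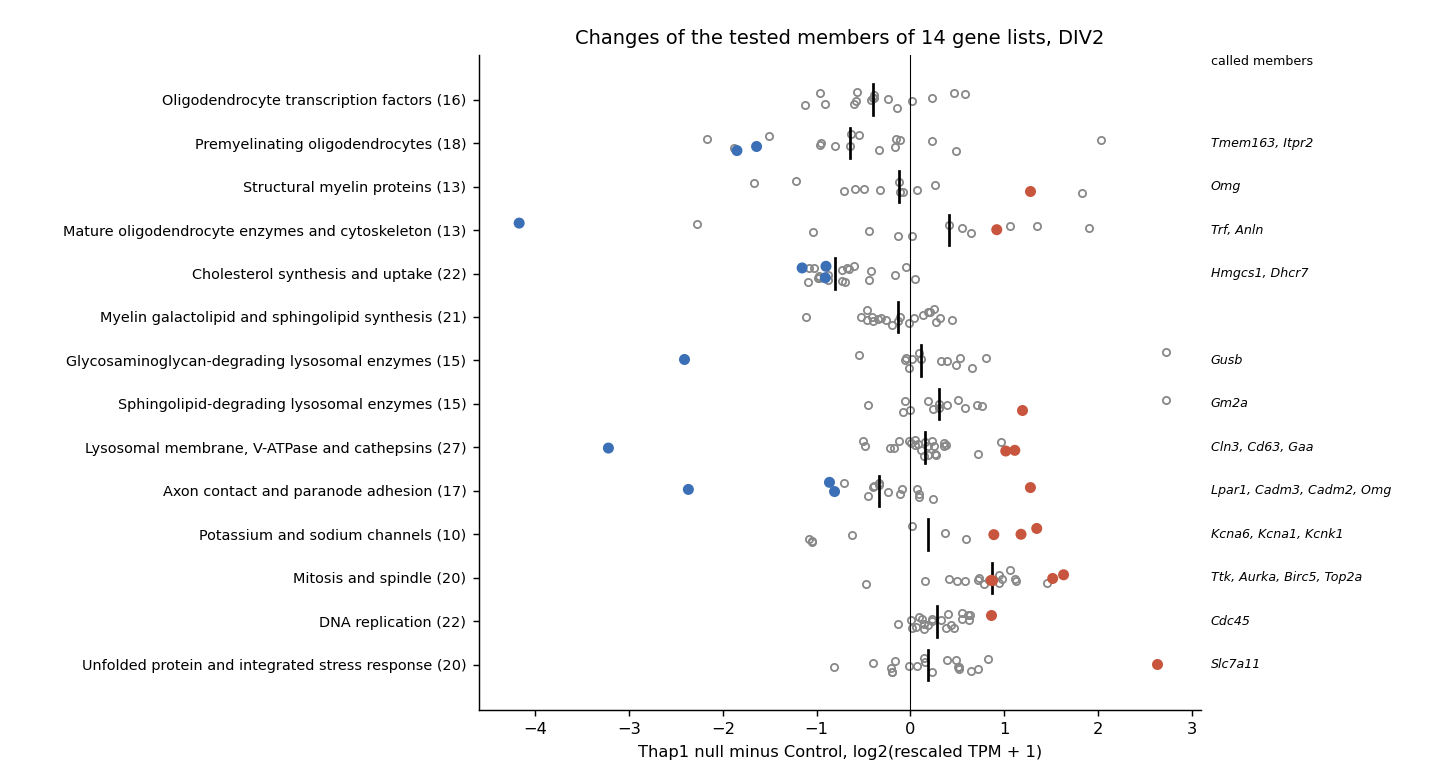
Change between genotypes at DIV2 for the tested members of 14 gene lists, on the log2(rescaled TPM + 1) scale. Each circle is a gene, filled blue or red where called lower or higher (names of most at the right), the black tick is the list's median, and the number after each name is how many members were tested; the cholesterol list lies left of 0 in 21 of 22 members, and the mitosis list right of 0 in 19 of 20.

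Genes of cholesterol synthesis, on which myelin membrane depends, held 3 of the falls. Of 22 tested, 3 fell and none rose, 21 of 22 changes were negative, and the median was -0.81 against -0.01 for all genes. Hmgcs1, which makes HMG-CoA, was at 284, 250 and 309 TPM against 97.8, 172 and 117 TPM (-1.16, SE 0.23, limma adjusted p = 0.0189). Dhcr7, which makes the last step to cholesterol, was at 19.3, 16.6 and 20.3 TPM against 7.31, 12.4 and 9.49 TPM (-0.90, SE 0.18, limma adjusted p = 0.0189). For both genes, D6 was the null clone nearest to the controls and 3F the farthest. Values of 13 of the 22 were lower in every null than in every control, among them Sqle, squalene epoxidase (-1.09, limma adjusted p = 0.0923), and Srebf2, the transcription factor that drives the pathway (-0.44, limma adjusted p = 0.0504). Both calls were lost without E8, 3F or 7F (highest adjusted p 0.151 and 0.143 for Hmgcs1 and Dhcr7, limma). Without the D7 DIV4 library, 7 of 22 were called lower, among them Idi1, Nsdhl and Srebf2. In galactolipid and sphingolipid synthesis, 0 of 21 tested genes were called and the median was -0.13, and without the D7 DIV4 library 1 was called, Scd2, lower.

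**Figure D4:**
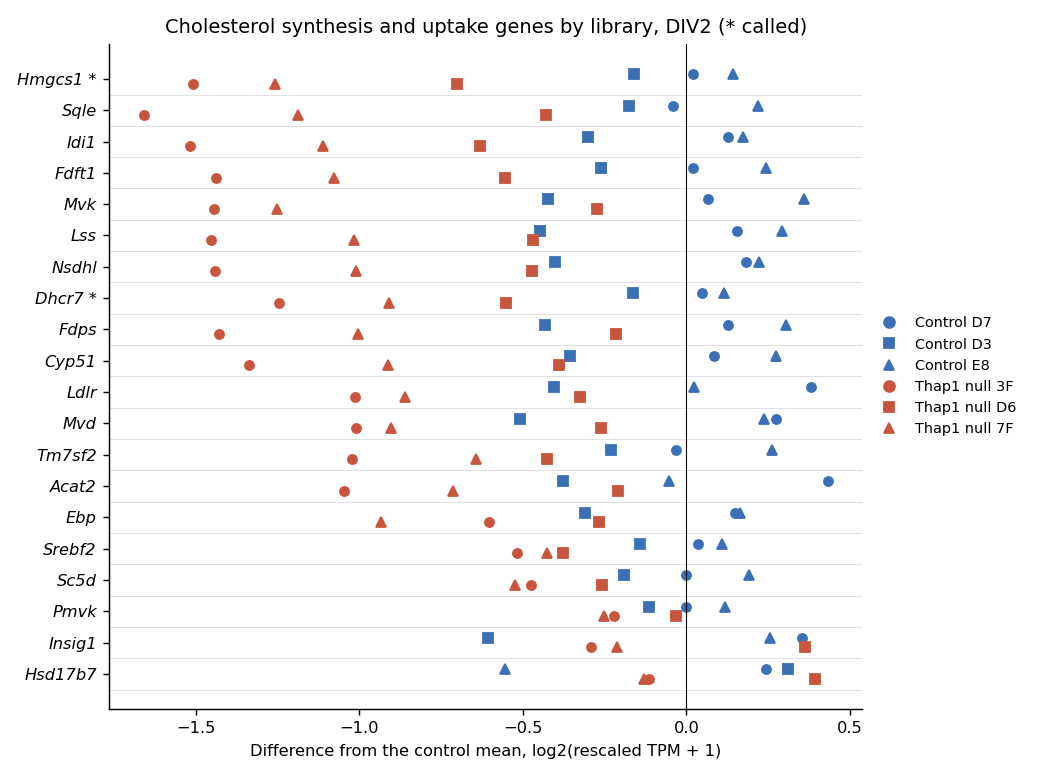
Level of 20 of the 22 tested cholesterol genes in each DIV2 library as its difference from the control mean, on the log2(rescaled TPM + 1) scale, for control (blue) and null (red) clones. Genes are ordered by their change and called genes carry an asterisk; null clones 3F and 7F lie left of D6 in the genes from Hmgcs1 to Ebp.

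In the lysosome, single enzymes and membrane proteins changed in opposite directions. Gusb, the β-glucuronidase that removes glucuronic acid from glycosaminoglycans, was at 7.49, 6.08 and 4.00 TPM in controls and 0.481, 0.0704 and 0.260 TPM in nulls (-2.41, SE 0.24, limma adjusted p = 0.000288), and no fit without 1 clone ended the call. It was the only call among 15 tested enzymes that degrade glycosaminoglycans (median 0.11). Hexa, the α subunit of β-hexosaminidase, was at 3.40, 18 and 22 TPM against 99.5, 71.5 and 75.8 TPM (2.73, SE 0.73, limma adjusted p = 0.0562). Control D7 was far below the other controls for Hexa, and without the D7 DIV4 library its adjusted p was 0.00837 and Naglu was called higher as well. Of 15 tested sphingolipid-degrading enzymes and cofactors, 1 rose (median 0.31): Gm2a, the activator that presents GM2 ganglioside to hexosaminidase, from 13.2, 9.64 and 9.76 TPM to 36.7, 18.6 and 25.3 TPM (1.19, SE 0.24, limma adjusted p = 0.0191, lost without D3, E8, 3F or 7F, highest 0.13). In that list 7 members were higher in every null than in every control, and 4 were called without the D7 DIV4 library (Gla, Gm2a, Hexa and Npc1).

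Of 27 tested lysosomal membrane proteins, proton pump subunits and cathepsins, 2 rose and 1 fell (median 0.16). The fall was that of Cln3. Gaa, the acid α-glucosidase that degrades glycogen, was at 24.7, 20.5 and 17 TPM against 47.2, 46.3 and 43.2 TPM (1.11, SE 0.15, limma adjusted p = 0.00228), and it was called without any single clone. Cd63, a tetraspanin of late endosomes, was at 63.9, 65.7 and 68.2 TPM against 182, 94.3 and 142 TPM (1.02, limma adjusted p = 0.0191, lost without D3, E8, 3F or 7F, highest 0.149), and it is uncertain because it shares sequence with the pseudogene Cd63-ps. Grn was called higher as well without the D7 DIV4 library. Gm2a and Gaa lie on chromosome 11, whose median change was 0.35 at DIV2.

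Matrix and adhesion genes changed in a few members. Among 24 tested genes of glycosaminoglycan synthesis and sulfation, 2 rose and none fell (median -0.02): Chsy3, a chondroitin synthase, from 2.23, 2.28 and 2.21 TPM to 8.81, 5.18 and 6.14 TPM (1.22, SE 0.24, limma adjusted p = 0.0174), and Chst3, a chondroitin 6-sulfotransferase, from 5.88, 6.52 and 4.32 TPM to 11.9, 9.94 and 11.6 TPM (0.90, SE 0.22, limma adjusted p = 0.0409). Chsy3 was lost without D3, 3F or 7F (highest 0.117, limma adjusted p) and Chst3 without E8, 3F, D6 or 7F (highest 0.214, limma adjusted p). Of 8 tested chondroitin sulfate proteoglycans 1 rose, Cd44, the hyaluronan receptor, from 0.244, 0.452 and 0.446 TPM to 3.92, 1.37 and 2.36 TPM (1.30, limma adjusted p = 0.0471, lost without D3, E8 or 7F, highest 0.22, not tested without 3F for its low level, and 0.0502 with the clone as a block). Of 12 tested collagens, laminins and related matrix proteins 2 rose, Sparc and Col18a1, a basement membrane collagen, which went from 0.197, 0.804 and 0.481 TPM to 4.68, 1.59 and 2.54 TPM (1.34, limma adjusted p = 0.0486, lost without any clone except D6, highest 0.216). Without the D7 DIV4 library, Dse and Extl3 were also called higher among the 24, and Col4a1 and Lamc1 lower among the 12.

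In the list of axon contact and paranode adhesion, 3 of 17 tested genes fell and 1, Omg, rose (median -0.33). Lpar1, the lysophosphatidic acid receptor of oligodendrocytes, was at 19.0, 12.8 and 24.1 TPM against 1.64, 5.65 and 1.88 TPM (-2.37, SE 0.58, limma adjusted p = 0.0412). Cadm3 (10.2, 11.9 and 18.3 TPM against 6.47, 8.10 and 5.81 TPM) and Cadm2 (53.3, 51.6 and 74.2 TPM against 30.1, 39.2 and 30.9 TPM), adhesion molecules of the nectin-like family, fell by 0.86 and 0.81 (limma adjusted p = 0.0407 and 0.0236). D6 was the null clone nearest to the controls in these 3 genes. Lpar1 and Cadm3 were lost without D3, E8, 3F or 7F (highest adjusted p 0.234 and 0.243, limma), and Cadm2 without 3F or 7F (highest 0.172, limma adjusted p). With the clone as a block the limma adjusted p of Cadm3 was 0.0502. In the fit without the D7 DIV4 library, 5 of the 17 were called lower, Cadm4 and Mag in addition. Grik3, a kainate receptor subunit, was the only call among 12 tested glutamate and GABA receptors, at 17.7, 12.3 and 11.6 TPM against 4.36, 5.15 and 4.68 TPM (-1.35, SE 0.22, limma adjusted p = 0.00749, and 0.0696 and 0.0726 without 3F and 7F). Grm7 was called lower too without the D7 DIV4 library.

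Potassium channels held 3 of the rises, among 10 tested potassium and sodium channel genes with a median of 0.19. Of all genes tested, 3.08% were called higher. In the list 4 genes were higher in every null than in every control and 3 were lower. None of the 10 was called lower, and the lowest change was -1.08. Kcna1, a voltage-gated channel subunit, was at 53, 55.6 and 46.2 TPM against 122, 99.8 and 134 TPM (1.18, SE 0.28, limma adjusted p = 0.036). Kcna6, its neighbour on chromosome 6, was at 3.85, 3.30 and 3.28 TPM against 6.68, 7.36 and 7.83 TPM (0.89, limma adjusted p = 0.0315). Kcnk1, a leak channel, was at 7.87, 3.11 and 5.39 TPM against 16.8, 10.6 and 17.5 TPM (1.35, limma adjusted p = 0.0382). Each null clone was above each control clone for these genes, and each call was lost without some clones: Kcna1 without D3, 3F, D6 or 7F (highest 0.204, limma adjusted p), Kcna6 without D3, E8, 3F or D6 (highest 0.12) and Kcnk1 without D3, E8, 3F or 7F (highest 0.228). Kcnj10 was called higher as well without the D7 DIV4 library.

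Transcripts of dividing cells were low in both genotypes, with 4 rises in the nulls. Of 20 tested genes of mitosis and the spindle, 4 rose and none fell, 19 of 20 changes were positive, and the median was 0.87. Top2a, topoisomerase IIα, was at 2.28, 4.47 and 2.51 TPM against 6.67, 18.7 and 11.4 TPM (1.63, SE 0.39, limma adjusted p = 0.0381). Birc5, survivin of the chromosomal passenger complex, was at 1.25, 2.23 and 0.933 TPM against 3.24, 9.99 and 6.05 TPM (1.52, limma adjusted p = 0.0436). Aurka and Ttk, mitotic kinases, rose by 0.87 and 0.86 (limma adjusted p = 0.0461 and 0.0359) to means of 3.75 and 1.60 TPM. In each of the 4, D6 was the highest null clone and D3 the highest control clone. These calls did not hold without single clones: Top2a and Birc5 were lost without any clone except 3F (highest 0.176 and 0.196, limma adjusted p), Aurka without any clone (0.0638 to 0.145) and Ttk without D3, E8 or 3F (highest 0.13), while it was too low to be tested without D6 or 7F. With the clone as a block the limma adjusted p of Aurka was 0.0699. In this list 0 of 19 tested genes were called with TPM as deposited, where 225 of all 10506 genes were called (79 higher). With the 6 DIV2 libraries alone 2 of 19 were called, against 654 of all 10495 genes (342 higher). Without the D7 DIV4 library 5 of 20 were called. Top2a and Birc5 lie on chromosome 11, and without the genes of that chromosome 2 of 16 tested members were called, against 447 of all 9677 genes. Of 22 tested replication genes, 1 rose, Cdc45, a subunit of the replicative helicase, from 0.609, 1.14 and 1.05 TPM to 2.00, 3.16 and 2.36 TPM (0.86, limma adjusted p = 0.0311, lost without any clone except D7, highest 0.166), and 21 of 22 changes were positive. No CDK inhibitor or D cyclin was called among 11 tested. Cdkn2a, an inhibitor of the cell cycle, was at 26.8, 22.1 and 33.2 TPM against 44.8, 43.3 and 39.0 TPM (0.63, limma adjusted p = 0.0806).

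The lists of stress responses, p53 targets and proteasome subunits each held 1 call, where 5.3% of all genes tested were called. Slc7a11, the cystine transporter that feeds glutathione synthesis, rose from 0.174, 0.246 and 0.340 TPM to 5.56, 9.19 and 5.93 TPM (2.63, SE 0.39, limma adjusted p = 0.00461). It was called without any single clone and was the only call among 20 tested genes of the unfolded protein and integrated stress responses (median 0.19). The 6 DIV2 libraries alone gave 4 calls among the 20, all higher (Asns, Ddit3, Ppp1r15a and Slc7a11), where 342 of all 10495 genes were called higher. Without the D7 DIV4 library 3 were higher (Dnajc3, Slc7a11 and Xbp1) and 1 lower (Vldlr). Atf4 and Hspa5, the central factor and the main chaperone of these responses, overlapped between genotypes. Trp53, the tumour suppressor p53, was the only call in its list of 16, at 8.18, 6.99 and 5.84 TPM against 13.4, 11.5 and 14.2 TPM (0.82, limma adjusted p = 0.00667, and 0.0678 and 0.0829 without 3F and 7F). It is uncertain because of the pseudogene Trp53-ps, and the list's median was -0.17. Aen, Bax and Eda2r, targets of p53, were called lower without the D7 DIV4 library. Psmb5, a catalytic subunit of the proteasome, fell from 108, 93.9 and 100 TPM to 46.9, 50.3 and 41.1 TPM (-1.11, SE 0.12, limma adjusted p = 0.000584), while no other subunit was called and the median of the 31 was 0.16. Psmb6, another catalytic subunit, was called higher without the D7 DIV4 library. Psmb5 shares 59.8% of its 31-base words with the annotated gene Gm3375 and is uncertain.

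In energy metabolism, 2 of 21 tested genes of glycolysis and hypoxia rose and 1 fell (median -0.01). Slc2a1, the glucose transporter GLUT1, was at 6.25, 6.50 and 7.13 TPM against 17.8, 11.6 and 13.9 TPM (1.0, SE 0.15, limma adjusted p = 0.00554, and 0.0539 without 7F). Eno2, an enolase, was at 1.37, 2.42 and 2.98 TPM against 12.5, 4.04 and 9.13 TPM (1.47, limma adjusted p = 0.0407, lost without D3, E8, 3F or 7F, highest 0.222, and 0.0704 with the clone as a block). Pfkl, the liver-type phosphofructokinase, was at 12.5, 12.6 and 14.9 TPM against 7.36, 7.81 and 7.22 TPM (-0.76, limma adjusted p = 0.0138, lost without E8, 3F or 7F, highest 0.124). Bnip3 and Ldha were called lower too without the D7 DIV4 library. None of 30 tested nuclear genes of the respiratory chain was called, and their changes lay between -0.18 and 0.34. Of 22 tested chromatin regulators 1 fell, Chd7, a remodelling ATPase that acts with Sox10 in oligodendrocytes, from 10.3, 8.83 and 10.2 TPM to 5.36, 6.46 and 6.09 TPM (-0.63, limma adjusted p = 0.0247, lost without D3, E8, 3F or 7F, highest 0.158), and without the D7 DIV4 library Hdac3 was called lower as well. Growth factor receptors (12 tested), Wnt feedback targets (5) and interferon genes (6) held no call, and Thap1 was the only call among 10 tested genes of the THAP family, Hcfc1 and Yy1. Erbb3, a neuregulin receptor of the first of these lists, was called higher with the 6 DIV2 libraries alone, with TPM as deposited and without the D7 DIV4 library (1.69, limma adjusted p = 0.00958). Of 14 tested genes of monogenic dystonia, Thap1 fell and Slc2a1 rose, and without the D7 DIV4 library Sgce was lower and Eif2ak2 higher too.

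Genes on chromosome 11 were higher in the nulls in a larger share than genes elsewhere. Of 752 unique-sequence genes tested there, 72 were called higher and 1, B9d1, lower (9.71% called), against 2.90% to 7.17% called on each of the 19 other chromosomes with at least 20 tested genes. The median change was 0.35 on chromosome 11 and between -0.08 and 0.08 on the others, and 86.8% of its changes were positive. By library, the median chromosome 11 gene differed from the control mean by 0.26 in D7, -0.13 in D3 and -0.13 in E8, and by 0.39, 0.32 and 0.31 in the nulls. Control D7 thus lay nearer to the 3 null clones than to the other 2 controls. On chromosome 8 the median was 0.13 in 3F, 0.12 in 7F and -0.03 in D6, and on chromosome 13 it was -0.15 in 7F. Of the 10 largest rises, Anxa6 and Sparc are on chromosome 11, as are Omg, Gm2a, Gaa, Top2a, Birc5 and Trp53 of the lists. The chromosomes of list genes called only without the D7 DIV4 library are not given here, so those rises may include others on chromosome 11. Mapt, the microtubule protein tau, chosen here after its values were seen, was at 16.2, 16.7 and 12.3 TPM against 98.3, 77.5 and 85.4 TPM (2.46, limma adjusted p = 7.21e-06). Off chromosome 11, 395 of 8161 unique-sequence genes were called (4.84%), 204 higher and 191 lower. The DNA of these clones was not analysed here, and the part of chromosome 11 in the results was not tested.

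**Figure D5:**
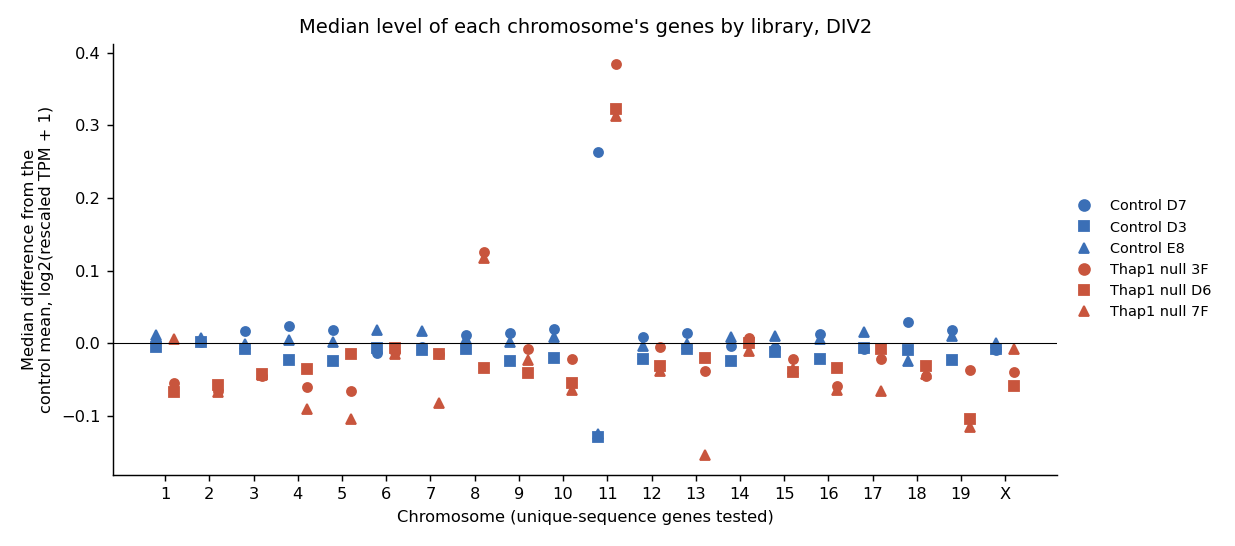
Median difference from the control mean of the unique-sequence genes of each autosome and of X, by DIV2 library, on the log2(rescaled TPM + 1) scale. Blue symbols are control and red symbols null clones; on chromosome 11 all 3 nulls and control D7 lie well above 0 and controls D3 and E8 at -0.13, while most other medians lie close to 0.

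Some called genes lay near one another, as many tested genes did. Of the 468, 71 had another called unique-sequence gene within 100000 bases, in 38 pairs, of which 33 changed in the same direction (23 both higher, 10 both lower). Chromosome 11 held 12 of the pairs, all both higher, and off it 21 of 26 pairs changed in the same direction. The 8913 tested unique-sequence genes, called or not, formed 12352 such pairs, of which 57.8% had changes of the same sign. How many called pairs that density alone would give was not computed, so the 38 are not read as a surplus. Cd81, Trpm5 and Tssc4, adjacent on chromosome 7 and chosen after their values were seen, all fell. Cd81, a tetraspanin, was at 930, 1014 and 899 TPM against 325, 523 and 363 TPM (-1.26), Trpm5, a cation channel, at 30.5, 31.9 and 20.2 TPM against 3.68, 6.43 and 3.92 TPM (-2.33), and Tssc4 at 138, 150 and 111 TPM against 30.9, 49.1 and 38.8 TPM (-1.73). Cuedc2 on chromosome 19 lies 2419 bases from Tmem180, which fell too (-1.44), and Fam73a on chromosome 3 lies 37023 bases from Fubp1 (-0.35). Clones also differed on the Y chromosome, where 4 coding genes summed to 0.663 TPM in 3F and to 26.2 to 80.9 TPM in the other 5 libraries.

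Most changes at DIV2 had the same sign at DIV4 in the same clones. Of the 468 unique-sequence genes called at DIV2, 445 (95.1%) had the same sign, as had 70.4% of all 8913 tested. At DIV4, 231 were also called in the same direction (149 higher, 82 lower). The share of all tested genes called at DIV4 is not given here, so these 231 stand without a background. Because each clone gave both stages, the DIV4 values are a repeat within clones and not an independent set of lines. Ech1 changed by -5.25 at DIV2 and -5.23 at DIV4, Anxa6 by 5.44 and 4.99, Gusb by -2.41 and -2.69 and Plin2 by 2.68 and 2.74. Hmgcs1 changed by -1.16 and -2.53, and Mbp by -1.22 (not called) and -2.97 (limma adjusted p = 0.0437 at DIV4). Mitotic genes differed in sign, Top2a changing by 1.63 and -0.31 and Birc5 by 1.52 and -0.45. The test of the difference between stages passed for none of these genes (limma adjusted p for the interaction 0.333 for Hmgcs1, 0.694 for Mbp, 0.362 for Top2a and 0.357 for Birc5). It passed for 1 gene of 10520, a histone gene that is not unique-sequence, while 988 had an unadjusted p under 0.05, and with the clone as a block it passed for 21 genes.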

How the data were processed

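RNA was measured in 18 libraries, of which the 6 DIV2 libraries were compared and the 6 DIV4 libraries shared the estimate of spread. The authors deposited TPM for 93666 transcripts in a single table, and the submitters' processing notes name STAR, Picard and mm10; the quantifier is not given in the sources used here. Per the labels' protocols, libraries were stranded total RNA with ribosomal RNA removal. TPM was summed by gene symbol over protein-coding transcripts (27 date-mangled symbols restored through GENCODE M21 identifiers), rescaled by median-of-ratios factors, filtered at a mean of 1 TPM over the DIV2 libraries and tested as log2(TPM + 1) with limma 3.58.1 in R 4.3.3 (trend, Benjamini-Hochberg). Sequence sharing used 31-base words of M21 transcripts. The test was also run on simulated data with independent noise in each library, which cannot check the effect of correlated libraries of a clone. Members and lists were chosen with earlier results of these data known. Named were Thap1 and Gusb, then the 10 largest rises and falls among called unique-sequence genes without overlap reaching 5 TPM, then up to 4 called members per list by adjusted p, or the 2 most abundant where none was called. Genes of chromosome 11, Mapt and the neighbouring genes were named after their values were seen. So were list members that this rule does not select, among them Mbp, Mag, Mobp, Sept4, Fyn, Bmp4, Sqle, Srebf2, Hexa and Neu4. Scaling, pseudocount, filter, clones and library sets were varied. Some genes of the lists are counted but not reported here by name.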

Additional observations from a re-analysis of the deposited data

Results flagged for a closer look

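Hist1h2ae, a histone gene that shares sequence with its copies, changed in opposite directions at the 2 stages. It was at 2.73, 3.06 and 3.44 TPM in controls and 6.004, 7.84 and 5.14 TPM in nulls at DIV2, and at 9.22, 10.6 and 12.2 TPM against 1.61, 1.94 and 2.63 TPM at DIV4. The change at DIV2 minus that at DIV4 was 2.77 on the log2 scale, the only difference between stages past the limma threshold, although 21 genes passed with the clone as a block. A second value stood out in a transcript that the sums over coding rows leave out. The retained-intron transcript of Thap1 had a mean of 11.01 TPM in nulls and 3.25 TPM in controls at DIV2, without overlap (two-sided exact permutation p = 0.1, the smallest possible).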

How the results depend on the processing

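Changes of the 57 named called genes kept their direction under every alternative run except Thap1 (log2 change 0.71, and 4.98 TPM, when all of its rows were summed), and the Gusb call held wherever it was tested. Counts below are all called, higher, lower and unique-sequence genes, against 558, 324, 234 and 468. They were 225, 79, 146 and 191 with TPM as deposited (35.1% higher, median change -0.17, against 58.1%), and 46.5% were higher with coding TPM scaled to an equal total. They were 349, 196, 153 and 286 with a filter at 5 TPM, 359, 213, 146 and 311 with all 18 libraries, 254, 156, 98 and 214 with a log2 change of at least 1, and 374, 210, 164 and 305 without a filter. Leaving out each clone in turn gave 92 to 1341, 54 to 757, 38 to 584 and 63 to 1145, lowest without 7F and highest without D7, and 0 to 1 for the difference between stages. Further alternatives were added after seeing the data: without the D7 DIV4 library counts were 1273, 658, 615 and 1083, and without chromosome 11 they were 447, 246, 201 and 370. The cause of these shifts was not tested, and some of these fits also held fewer samples or genes. No pairing across genotypes exists, since they hold different clones; with the clone as a replicate block over DIV2 and DIV4 (correlation 0.402) 546 genes were called, the calls of Anln, Cd44, Bhlhe22, Cadm3, Aurka and Eno2 were lost, and 21 genes instead of 1 differed between stages. TPM without depth leaves the precision of low genes unknown.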
